A study of Bos taurus with 2 samples.

Results

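The collagen-rich cells of day 25 bovine chimeric embryos were the 162 of 4159 kept barcodes that carried much COL1A1, COL1A2 and COL3A1 RNA. A barcode was kept with at least 1000 UMI (unique molecular identifiers, each standing for a captured transcript) and at least 500 genes. A kept barcode was a member when the 3 collagen genes summed to at least 10 UMI and to at least 0.2% of its UMI. The embryos were chimeric, having taken up bovine embryonic stem cells. After papain dissociation the cells were sorted, with the gate not stated, and profiled on a droplet 3′ RNA platform. Both libraries, replicate 1 and replicate 2, belong to the same group, so the comparison runs within each library, from the collagen-rich cells to the other 3997 kept barcodes. Whether the 2 libraries stem from separate embryos is not stated, so any spread between them may be technical. The fit left 1 residual degree of freedom, so its p-values rest on a spread taken almost wholly from all genes together. They do not measure the spread of a single gene between embryos.

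Fibrillar collagens are secreted mainly by mesenchymal cells, the loosely packed cells that lie between epithelia and form connective tissue, vessel walls and the stroma of organs. Procollagen chains are hydroxylated and folded in the endoplasmic reticulum, trimmed outside the cell, assembled with small proteoglycans such as decorin and lumican, and crosslinked by lysyl oxidases. In an embryo, such cells arise from lateral plate, paraxial and extraembryonic mesoderm and from neural crest, which differ in their homeobox and other transcription factors.

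Replicate 1 held 39 members of 1843 kept barcodes, or 2.12% (exact Clopper-Pearson 95% interval 1.51 to 2.88). The 123 members of replicate 2 were 5.31% of its 2316 kept barcodes (4.43 to 6.3). The intervals cover counting error only, and the mean of both libraries was 3.71%. They do not overlap under this rule, but they do under a stricter rule of at least 20 collagen UMI and 1%, with 1.79% (1.24 to 2.51) in replicate 1 and 2.85% (2.21 to 3.61) in replicate 2. The deposited barcodes of replicate 1 held 11182089 UMI in all and those of replicate 2 held 15427708. Members had a median of 10088 UMI in replicate 1 and 6717 in replicate 2, against 5193 and 5928 in the other kept barcodes. The libraries shared 6 barcode sequences, 0 of them among members, and no doublet caller was run here, so doublets remain possible among the members.

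The 3 collagen genes chose the cells, so their values are a description with no test. They took 0.215% to 5.9% of the UMI of a member in replicate 1, with a median of 2.62%, and 0.202% to 8.93% in replicate 2, with a median of 1.16%. Summed over cells they made up 2.79% and 2.37% of the UMI of the collagen-rich cells in replicates 1 and 2, against 0.0101% and 0.0114% of the UMI of the other kept barcodes. Members just inside the limit held 0.202% and 0.215%, the lowest of them with 16 collagen UMI, and the nearest barcode outside held 0.199% with 14. In all, 35 kept barcodes had at least 10 collagen UMI but under 0.2%, 20 had at least 0.2% but under 10 UMI, and 13 members lay under 0.3%.

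Members fell along a range of collagen shares that the libraries filled differently. Replicate 1 had 33 cells and replicate 2 had 67 cells at 1% or more of their UMI, of which 5 and 4 were over 5%. Replicate 1 had 6 cells and replicate 2 had 56 cells between 0.2% and 1%. The cells at 1% or more had a median of 12193 UMI in replicate 1 and 12488 in replicate 2, and the cells between 0.2% and 1% had 5223.5 and 3935.5. The lower range therefore held 56 of the 123 members of replicate 2, against 6 of the 39 of replicate 1.

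The 2 ranges differed in genes that the rule did not use. Levels here are UMI of a gene or list per 10000 UMI, given for replicate 1 and then replicate 2. The neural progenitor list stood at 1.17 and 1.30 in members at 1% or more, at 18.2 and 16.2 in members between 0.2% and 1%, and at 19.7 and 19.7 in the other kept barcodes. SOX2, a transcription factor of neural progenitors, stood at 1.68 and 1.40 in the lower range, against 2.53 and 2.68 in the other kept barcodes. The lower range thus lay close to the other kept barcodes in this list, while the higher range held little of it in either library. The neuron list had the same order, with 0.223 and 0.442 in members at 1% or more, 4.76 and 6.32 in the lower range, and 14.5 and 16.2 in the other kept barcodes. Values under the stricter rule, which leaves out the lower range, are given beside many of the results.

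**Figure D1:**
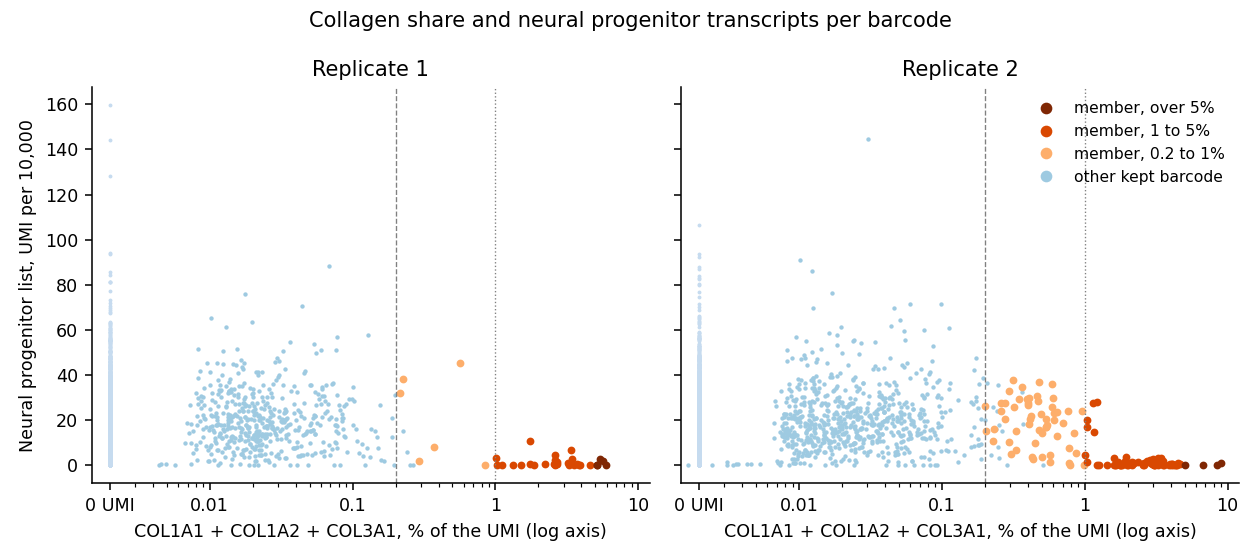
Each point is a kept barcode, placed by the share of its UMI that came from COL1A1, COL1A2 and COL3A1 (log axis, barcodes with 0 collagen UMI at the left edge) and by the UMI of the neural progenitor list per 10000 UMI, for each library. Dashed and dotted lines mark 0.2% and 1%. Most members over 1% lie near 0 on the neural axis, and the 56 members of replicate 2 between 0.2% and 1% spread over the range of the other kept barcodes.

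Cells at 1% or more carried a shared set of transcripts for secreted proteins and for an epithelial keratin. APOA1 and RBP4 encode the lipid carrier apolipoprotein A1 and the plasma carrier of retinol, KLK1 a secreted serine protease, A2M a secreted protease inhibitor, KRT19 a keratin and DCN the proteoglycan decorin. UMI of all 6 genes, which were picked after their values were seen, were found together in 29 of 33 such cells of replicate 1 and 60 of 67 of replicate 2. In the lower range this was 0 of 6 and 17 of 56, and among the other kept barcodes 0 of 1804 and 2 of 2193. Cells were not thinned for these counts. The median was 12193 and 12488 UMI at 1% or more, against 5223.5 and 3935.5 in the lower range and 5193 and 5928 in the others. The part of depth in these counts was not tested. At the lower range of replicate 2, KLK1 stood at 20.6% of its level at 1% or more, APOA1 at 17.0%, RBP4 at 25.0%, A2M at 26.0%, KRT19 at 35.1% and DCN at 34.8%, while COL1A1, which the rule used, stood at 11%. In replicate 1 the 6 cells of the lower range had no KLK1 UMI and held 1.53% of the APOA1 level.

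**Figure D2:**
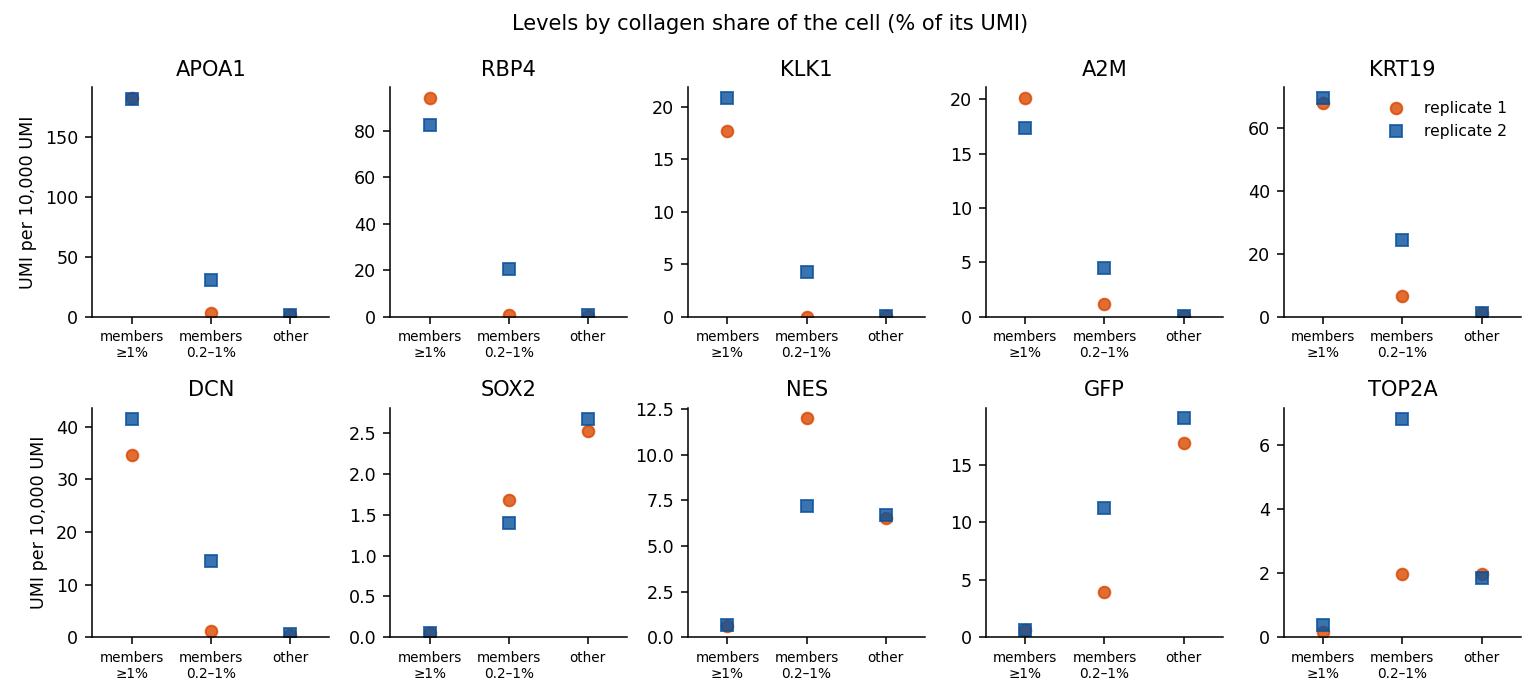
Levels of 10 genes (UMI per 10000 UMI, summed over cells) in members at 1% or more, members at 0.2% to 1% and other kept barcodes, with a circle for replicate 1 and a square for replicate 2. APOA1, RBP4, KLK1, A2M, KRT19 and DCN are highest in the first group, and SOX2, NES and GFP are lowest there.

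Counts were then summed over all collagen-rich cells and over all other kept barcodes of each library, and tested by quasi-likelihood in edgeR, with p-values adjusted by Benjamini-Hochberg over 13411 genes. Of these, 2653 (19.8%) were higher and 2518 (18.8%) lower in collagen-rich cells at an adjusted p under 0.05, so 38.6% of all genes were called. The cells were chosen by a readout, so a p-value does not measure how distinct they are. Changes are log2 fold changes of collagen-rich cells over other kept barcodes, the median over all genes tested was -0.17, and levels are normalised CPM (UMI scaled to the same library size with TMM factors). The scaling matters: with library size alone 1488 genes (11.1%) were higher and 5864 (43.7%) lower, since that scaling lowers every log2 value of the collagen-rich cells by about 0.69. Because the lower range of members differed, the stricter rule was fitted too. Under that rule 2900 genes (21.7%) were higher and 3628 (27.2%) lower, in all 48.9% of those tested.

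The largest rises were mostly secreted, matrix and membrane genes, with the homeobox factor PITX1 and ZNF831 also among them. SOD3, an extracellular superoxide dismutase, had 309 and 331 CPM in collagen-rich cells of replicates 1 and 2, against 0.071 and 0.229 CPM in other kept barcodes (log2 fold change 10.86, SE 0.38). KLK1 had 2020 and 2110 CPM in collagen-rich cells, against 1.56 and 2.4 CPM in the others (10.01, SE 0.36). The others were near the level of single UMI for SOD3, which had 1 and 4 UMI there. CCN4, a matricellular protein gene, had a log2 fold change of 9.90 (SE 0.34), and AQP1, a water channel gene, had 879 and 692 CPM in collagen-rich cells, against 0.923 and 1.03 CPM in the others (9.60). A2M had 2300 and 1800 CPM in collagen-rich cells, against 2.06 and 3.89 CPM in the others (9.41). The other 11 of the 16 largest rises ranged from 7.83 to 9.04 and were COL6A1, PITX1, AEBP1, ZNF831, WFDC1, PLAC9, COL6A3, TMEM204, RBP4, CAVIN3 and LUM. ZNF831 rested on 38 and 34 UMI in collagen-rich cells. All 16 rises were called in the same direction under each alternative that was run. They were chosen as the largest called rises in these same data, so this agreement is no separate support.

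**Figure D3:**
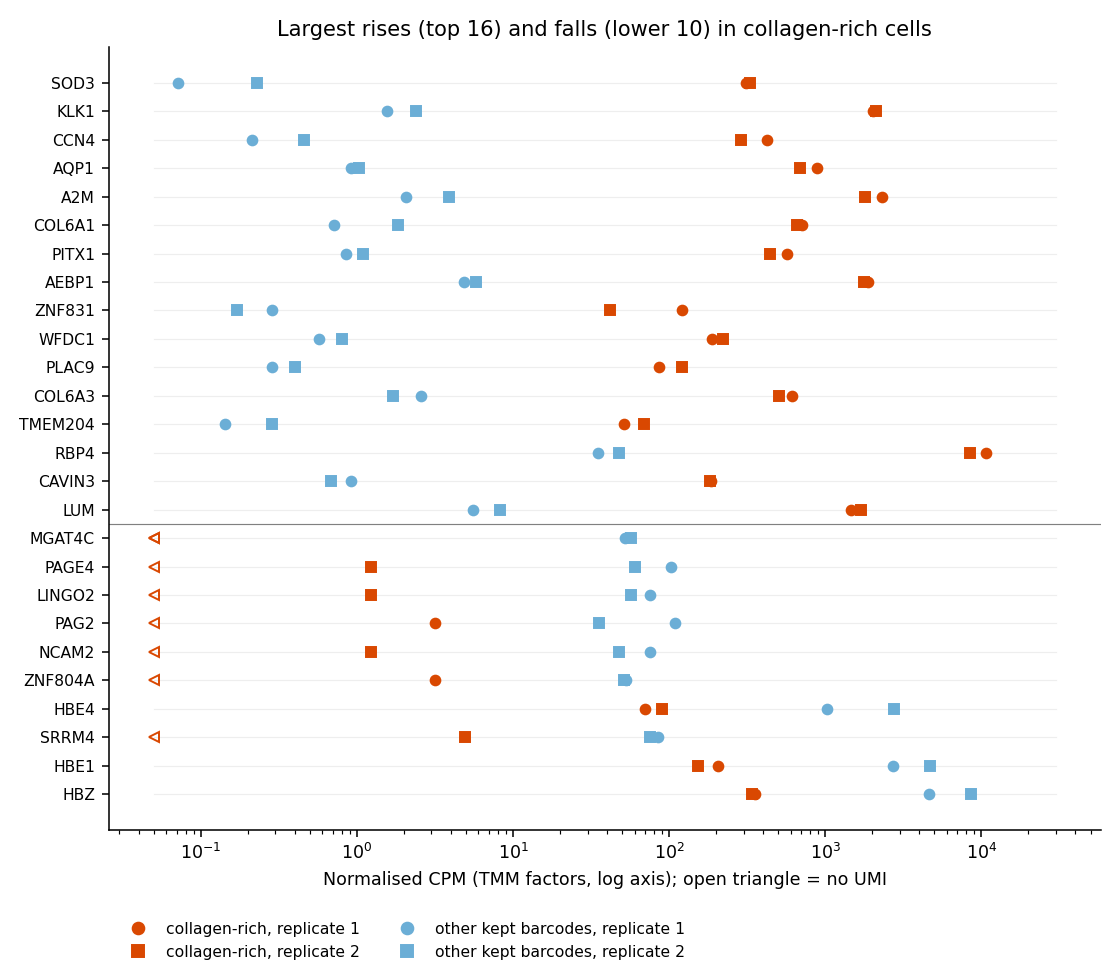
Normalised CPM (log axis) of the 16 genes with the largest rises and the 10 with the largest falls, for collagen-rich cells and for other kept barcodes, with circles for replicate 1 and squares for replicate 2. An open triangle at the left edge stands for 0 UMI. The 26 genes were chosen for large changes of the same sign in both libraries, so the gap between the groups follows from that choice.

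Collagens outside the rule were mostly higher. Of 17 such genes listed, 14 passed the filter on low counts, and 11 were higher and 1 lower, with a median log2 fold change of 5.04. The same fit called 19.8% of all genes higher and 18.8% lower. COL6A1, a chain of the beaded-filament collagen VI, had 713 and 655 CPM in collagen-rich cells, against 0.71 and 1.83 CPM in the others. The basement membrane chain COL4A1 had 3690 and 3160 CPM in collagen-rich cells, against 102 and 109 CPM in the others (5.01, SE 0.30, adjusted p = 2.2e-58). COL5A1, which nucleates collagen I fibrils, changed by 6.32 and COL18A1, whose fragment is endostatin, by 5.53. Chains of fibrillar, beaded-filament and basement membrane collagens were thus all among the higher genes. The cartilage chain COL2A1 was the one called lower, with 28.7 and 35.6 CPM in collagen-rich cells, against 74.5 and 79.2 CPM in the others (-1.23, and -3.67 under the stricter rule), and this call was lost under a looser rule of at least 5 UMI and 0.1% (-0.15).

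Proteins that fill and bind the matrix followed. Of 26 matrix glycoproteins and proteoglycans tested, 22 were higher and 0 lower, with a median of 4.63, beside 19.8% and 18.8% of all genes. SPARC, a collagen-binding glycoprotein, had 6760 and 5470 CPM in collagen-rich cells, against 90.2 and 101 CPM in the others (6.0, SE 0.35). The fibril-spacing proteoglycan LUM had 1450 and 1680 CPM in collagen-rich cells, against 5.54 and 8.29 CPM in the others (7.83). DCN changed by 6.88, the laminin chain LAMA4 by 6.99 and fibronectin, FN1, by 4.45. POSTN, which codes for the matrix protein periostin, depended on the lower range of members. It had 22.3 and 40.5 CPM in collagen-rich cells, against 2.91 and 1.37 CPM in the others (4.08). However, all 7 and 33 of its UMI lay in cells under 1%, in 1 cell of replicate 1 and 4 of replicate 2. It had 0 UMI in cells at 1% or more.

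The enzymes that make and crosslink collagen were higher in 19 of 22 tested genes and lower in 0, with a median of 2.67. The all-gene shares, here and for the proteases below, were 19.8% higher and 18.8% lower. LOXL2, a lysyl oxidase, had 681 and 568 CPM in collagen-rich cells, against 15.3 and 16 CPM in the others (5.30). LOX changed by 4.73, PCOLCE, an enhancer of procollagen trimming, by 5.75, and the collagen chaperone SERPINH1 by 3.14. MIA3, which takes part in the export of procollagen from the endoplasmic reticulum, had 121 and 122 CPM in collagen-rich cells, against 135 and 128 CPM in the others and was not called (adjusted p = 0.736). Among 20 matrix proteases and inhibitors 14 were higher and 2 lower, with a median of 2.57. ADAMTS9 changed by 5.43 and TIMP1 by 4.57, while the membrane protease MMP16 was lower (-0.96) and MMP15 had 0 UMI in the members.

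**Figure D4:**
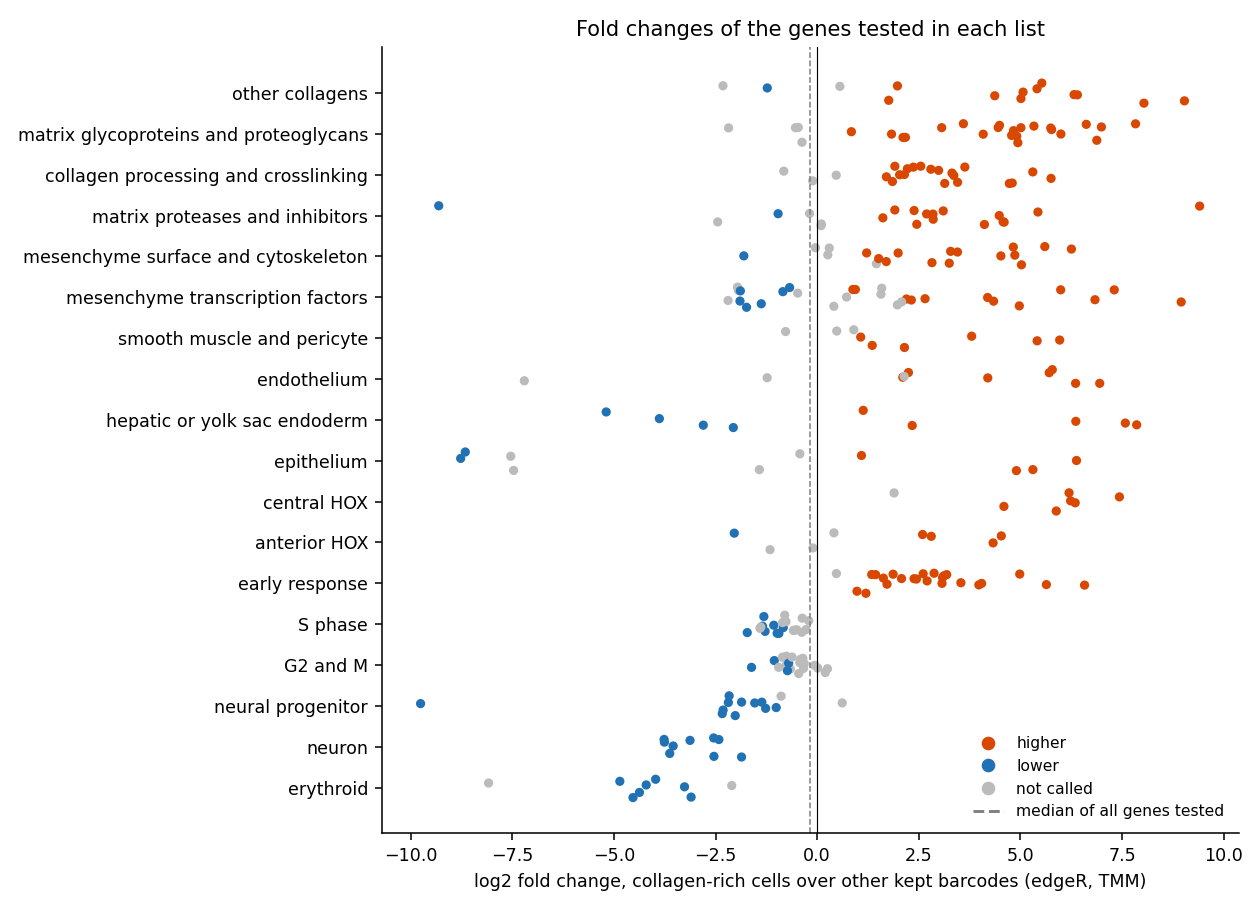
Log2 fold changes of the genes tested in 18 of the lists, collagen-rich cells over other kept barcodes, with each point a gene, coloured as higher, lower or not called, and a dashed line at the median of all genes. Matrix lists lie to the right and neural lists to the left, and so does the erythroid list, whose falls are lost without 30 globin-rich barcodes of the comparison. Points beyond about -7 are genes with 0 UMI in collagen-rich cells, whose fitted values depend on the prior count.

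The transcription factors that mark mesenchyme did not move as 1 group. Of 35 listed, 28 were tested, 12 were higher and 6 lower, with a median of 1.25. Of all genes 19.8% were called higher and 18.8% lower, so the count lower is close to that background. PITX1, a homeobox factor of hindlimb and lateral plate mesoderm, had 564 and 440 CPM in collagen-rich cells, against 0.852 and 1.09 CPM in the others (8.96). HAND1, a basic helix-loop-helix factor of lateral and extraembryonic mesoderm, changed by 5.99, GATA6 by 6.83, TBX20 by 4.34 and SNAI2 by 4.19. These factors were low in the other kept barcodes of both libraries. TWIST1 had 47.8 and 101 CPM in collagen-rich cells, against 14.8 and 18.3 CPM in the others (2.20), and FOXF1, a factor of splanchnic mesenchyme, changed by 4.97 on 7 and 8 UMI.

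Other factors of the list were lower or rare. PRRX1, a factor of limb and craniofacial mesenchyme, had 3.18 and 4.91 CPM in collagen-rich cells, against 10.4 and 16.6 CPM in the others (-1.74, adjusted p = 0.0326), and its sign turned under the looser rule (0.47). EBF1 was lower (-1.89), as were NR2F1 (-1.90) and NR2F2 (-1.38), and FOXC1, TWIST2, MEOX1 and HAND2 were not called. TBX5 had 0 UMI in the members, and the 10 GATA4 UMI of the members lay in cells under 1%. Among surface and cytoskeletal genes of mesenchyme, 14 of 19 were higher and 1 lower, with a median of 2.82. The all-gene shares were 19.8% higher and 18.8% lower. PDGFRB, a platelet-derived growth factor receptor, had 60.5 and 54.1 CPM in collagen-rich cells, against 2.13 and 1.89 CPM in the others (4.82). PDGFRA, the related receptor, had 25.5 and 12.3 CPM in collagen-rich cells, against 4.61 and 4.00 CPM in the others (1.99, SE 0.61, adjusted p = 0.00414), a call that limma-trend did not make (adjusted p = 0.11). CD44 changed by 6.26, LGALS1 by 5.03 and CDH11, a cadherin of mesenchyme, by 2.82, whereas the neural and mesenchymal cadherin CDH2 was lower (-1.81).

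Summed over all members, matrix genes and part of the mesenchyme factors were thus higher, and the sums also carried markers of other lists. The cells were chosen by collagen RNA, so higher matrix genes are no separate support for a mesenchyme label. Members under 1% lay close to the other kept barcodes in the neural progenitor list, so the sums do not describe all members alike. Of the 13 epithelial genes listed, 10 were tested, 4 were higher and 2 lower, with a median of -0.93, beside 19.8% and 18.8% of all genes. KRT19 had 7830 and 7420 CPM in collagen-rich cells, against 83.3 and 100 CPM in the others (6.38), and KRT8 had 2560 and 1900 CPM in collagen-rich cells, against 64.7 and 83.9 CPM in the others (4.90). KRT18 changed by 1.09 and MSLN, a mesothelial surface protein gene, by 5.31. The defining epithelial genes EPCAM and CDH1 had 0 UMI in the members. Where a gene has 0 UMI, the floor of 3 counts over both libraries is 2.66 CPM.

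Plasma protein genes divided in the same way. Of 9 tested genes of the hepatic or yolk sac endoderm list 5 were higher and 4 lower, with a median of 1.13. The same fit called 19.8% of all genes higher and 18.8% lower. APOA1 had 20800 and 18200 CPM in collagen-rich cells, against 77.4 and 133 CPM in the others (7.58, SE 0.44, adjusted p = 1.22e-62). RBP4 had 10700 and 8500 CPM in collagen-rich cells, against 35.1 and 47.8 CPM in the others (7.86). APOE, a lipoprotein, changed by 6.36, and the iron carrier TF by 2.34 with few UMI. The 2 defining genes AFP and APOB had 0 UMI in the members. TTR (-3.88), AHSG (-2.80), SERPINA1 (-5.19) and FOXA2 (-2.07) were lower, and of these SERPINA1 went the other way in replicate 1, with 3.18 CPM in collagen-rich cells against 0.355 CPM in the others. Neither TF (adjusted p = 0.161), TTR (0.144), AHSG (0.182) nor SERPINA1 (0.513) was called by limma-trend.

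Vascular, blood and muscle genes were present in part. Of 19 endothelial genes listed 10 were tested, 7 were higher and 0 lower, with a median of 3.22. The same fit called 19.8% of all genes higher and 18.8% lower. The count filter can pass a gene that is rare in the others, such as KDR, through collagen-rich cells alone. The endothelial count therefore does not test a direction. KDR, a receptor for vascular endothelial growth factor, had 95.5 and 124 CPM in collagen-rich cells, against 1.06 and 0.743 CPM in the others (6.95), and the ETS factor FLI1 changed by 6.36. PECAM1 and CDH5, which define endothelium, had 0 UMI in the members. RUNX1, a factor of blood and some mesenchyme, had 557 and 525 CPM in collagen-rich cells, against 17.9 and 15.2 CPM in the others (5.04), while the leukocyte gene PTPRC had 0 UMI. MYL4, an embryonic atrial myosin light chain gene, had 541 and 451 CPM in collagen-rich cells, against 7.67 and 3.49 CPM in the others (6.56), while the sarcomere gene TNNT2 had 0 UMI.

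Contractile genes of smooth muscle were higher in 6 of 9 tested and lower in 0, with a median of 1.35. The all-gene shares were 19.8% higher and 18.8% lower, and 21.7% and 27.2% under the stricter rule. ACTA2, smooth muscle actin, had 318 and 396 CPM in collagen-rich cells, against 7.95 and 8.80 CPM in the others (5.41). TPM2 changed by 5.97 and MYL9 by 3.80. TAGLN turned round with the rule. It had 341 and 103 CPM in collagen-rich cells, against 84.1 and 96.0 CPM in the others (1.07), but its log2 fold change was -3.99 under the stricter rule, where 5 genes of the list were higher and 2 lower, and it was not called by limma-trend (adjusted p = 0.212). Cells between 0.2% and 1% held 106 of its 107 UMI in members of replicate 1 and 80 of its 84 in replicate 2. In that range only 2 of 6 cells of replicate 1 held a TAGLN UMI, and 26 of 56 of replicate 2.

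HOX genes, which record position along the body axis, were mostly higher where they were tested. Of 7 central genes 6 were higher and 0 lower, with a median of 6.20, and both posterior genes tested, HOXB9 (5.39) and HOXC9 (5.18), were higher. HOXC8 had 47.8 and 55.3 CPM in collagen-rich cells, against 0.213 and 0.343 CPM in the others (7.44). HOXB6 changed by 6.24 and HOXB8 by 6.20. Of 8 anterior genes tested 4 were higher and 1 lower, with HOXB4 at 4.53 and HOXA2 lower, at -2.04. The all-gene shares were 19.8% higher and 18.8% lower. Of 11 central genes listed 7 were tested, and of 16 posterior genes listed the other 14 were not tested. Central and posterior genes were rare in the other kept barcodes. The count filter can pass such a gene through collagen-rich cells alone, and a gene so passed could hardly be called lower. The central and posterior counts therefore do not test a direction, and the levels are a description.

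Signalling genes were mixed, beside 19.8% of all genes called higher and 18.8% called lower by the same fit. Among BMP and TGF-beta genes 13 of 27 were higher and 2 lower, with a median of 1.09. BMP4, a ligand that patterns mesoderm, had 274 and 193 CPM in collagen-rich cells, against 1.42 and 2.11 CPM in the others (6.97). The ligands BMP7 (3.81), TGFB1 (5.54) and TGFB2 (2.97) were higher, as were the receptors TGFBR2 (2.68) and TGFBR3 (3.80) and the antagonists NOG (2.18) and FST (1.92). The receptor BMPR1A (-0.60) and the inhibitory helix-loop-helix gene ID4 (-1.74) were lower, and its relatives ID1, ID2 and ID3 were not called. Under the stricter rule 13 of 26 were higher and 6 lower, beside 21.7% and 27.2% of all genes, so the count lower is close to that background.

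Among FGF, PDGF, IGF and chemokine genes 12 of 28 were higher and 4 lower, with a median of 0.71. Under the stricter rule 12 of 27 were higher and 9 lower. Of all genes 18.8% were called lower, and 27.2% under the stricter rule, so the counts lower are close to background. IGF2, a fetal growth factor, had 1820 and 1480 CPM in collagen-rich cells, against 68.7 and 68.7 CPM in the others (4.57, SE 0.27). IGF2R, the receptor that clears it, changed by 3.72, the binding proteins IGFBP7 by 5.33 and IGFBP4 by 3.68, and IGF1R was lower (-1.90). CXCL12, a chemokine, was higher (3.45) with 79.6 and 18.4 CPM in collagen-rich cells, against 3.76 and 3.43 CPM in the others, but had no UMI in cells that met the stricter rule. WNT and R-spondin genes were higher in 6 of 17 and lower in 4, with WNT2B at 4.16 and RSPO3 at 1.95 among the higher ones and RSPO2 (-2.50) among the lower, and under the stricter rule 6 were lower. Hedgehog response genes were higher in 4 of 10, with GLI3 at 1.80, and lower in 3, with the receptor PTCH1 at -1.11. The WNT counts lower were close to the same all-gene shares, and the hedgehog list had too few genes to set against them.

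Early response genes, which switch on within minutes of stimulation or tissue dissociation, were higher in 23 of 24 tested, with a median of 2.65. The all-gene share called higher was 19.8%. JUN had 5210 and 5010 CPM in collagen-rich cells, against 567 and 652 CPM in the others (3.07), and FOSB had 1030 and 960 CPM in collagen-rich cells, against 20.7 and 19.1 CPM in the others (5.64). KLF2 changed by 6.58 and the phosphatase gene DUSP1 by 3.54. The list as a whole stood at 134 and 154 UMI per 10000 in members at 1% or more, at 39.5 and 63.7 in the lower range and at 34.2 and 36.1 in the other kept barcodes. Its part in the other differences was not tested.

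Genes of the cell cycle differed between the ranges of members. Of 20 S phase genes 8 were lower and 0 higher, with a median of -0.84, and of 20 G2 and M genes 4 were lower and 0 higher, with a median of -0.54, beside 18.8% of all genes called lower by the same fit. The G2 and M count is close to that background. Under the stricter rule 19 and 18 were lower, with medians of -1.93 and -2.05, beside 27.2% of all genes. By limma-trend 0 of either list were called, at an all-gene share of 6.58% lower. The G2 and M list stood at 1.87 and 2.48 UMI per 10000 in members at 1% or more, at 10.4 and 29.7 in the lower range and at 15.7 and 15.0 in the other kept barcodes. TOP2A, a topoisomerase of dividing cells, had 41.4 and 269 CPM in collagen-rich cells, against 150.0 and 151 CPM in the others, and was not called (-0.06, adjusted p = 0.957). It was lower under the stricter rule, by a log2 fold change of -1.92.

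Neural genes were lower, and erythroid genes were lower through a few barcodes of the comparison. In the neural progenitor list 11 of 13 were lower and 0 higher, with a median of -1.86, which was -3.46 under the stricter rule. Beside this count and the neuron and erythroid counts below, 18.8% of all genes were called lower. SOX2 had 25.5 and 52.8 CPM in collagen-rich cells, against 192 and 219 CPM in the others (-2.32, SE 0.27), and -4.83 under the stricter rule. All 9 neuron genes tested were lower, with a median of -3.13, and STMN2 had 38.2 and 114 CPM in collagen-rich cells, against 395 and 501 CPM in the others (-2.54). Of 9 erythroid genes 7 were lower and 0 higher. HBZ, an embryonic alpha-type globin, had 353 and 338 CPM in collagen-rich cells, against 4590 and 8590 CPM in the others (-4.21), HBE1 changed by -4.37 and HBE4 by -4.53. Of the HBZ UMI of the other kept barcodes, 93.6% and 96.6% lay in the 9 and 21 barcodes with at least 10% globin UMI. HBZ stood at 2.82 and 2.62 UMI per 10000 in collagen-rich cells, against 3.94 and 3.74 in the other kept barcodes without those 30. Without them edgeR called 0 of 5 erythroid genes tested, 0 at an unadjusted p under 0.05, and HBZ changed by 0.22 (edgeR adjusted p = 0.419). Without thinning, HBE1 was found in 76.9% and 59.3% of collagen-rich cells, against 63.4% and 62.6% of the other kept barcodes. With cells thinned to 1000 UMI, it was found in 7.69% and 8.13% of collagen-rich cells, against 22.8% and 20.0% of the others.

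The other named falls had very few UMI in collagen-rich cells, so their fitted values depend on the prior count. MGAT4C, which codes for a glycosyltransferase, had 0 UMI in both libraries and was at least 20.7-fold lower at the floor of 3 counts over both libraries, against 52.5 and 57.1 CPM in the others. PAGE4 had 1 UMI and was 89.1-fold lower with an exact counting interval of 16 to 3520. LINGO2 (73.3-fold, 13.1 to 2900), PAG2 (77.0-fold, 13.8 to 3040), NCAM2 (67.3-fold, 12.1 to 2660) and ZNF804A (58.6-fold, 10.5 to 2320) were lower with 1 UMI each. SRRM4, a splicing factor of neurons, was 22.4-fold lower (8.73 to 82.2) with 4 UMI. PAG2 belongs to the trophoblast list, in which 5 of 7 tested genes were lower and 0 higher, and 2 were lower by limma-trend. The all-gene shares called lower were 18.8% by edgeR and 6.58% by limma-trend. By DESeq2, which called 7.01% of all genes lower, MGAT4C was the only one of the 10 named falls not called (adjusted p = 0.186). By limma-trend, which called 6.58% lower, ZNF804A (adjusted p = 0.0532) and SRRM4 (adjusted p = 0.0589) were not called.

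GFP, the fluorescent reporter gene, has a row in the counts, but the labels do not say which cells carry it. Collagen-rich cells had 111 and 441 CPM, against 1280 and 1550 CPM in the other kept barcodes (-2.52, SE 0.27, edgeR adjusted p = 2.42e-19). The change was -3.53 in replicate 1 and -1.81 in replicate 2, and -4.19 under the stricter rule. Under the looser rule it was -0.46 and not called. The level was 0.762 and 0.945 UMI per 10000 in members over 5%, on 4 and 3 UMI, 0.556 and 0.583 in members between 1% and 5%, 3.92 and 11.2 in members under 1%, and 16.9 and 19.0 in the other kept barcodes. With cells thinned to 2000 UMI, GFP was found in 15.4% of members of replicate 1 and 40.0% of replicate 2, against 65.4% and 68.5% of the other kept barcodes. At 1% or more it was found in 9.09% (exact interval 1.92 to 24.3) and 9.23% (3.46 to 19.0), and under 1% in 3 of 6 cells and 42 of 55 cells. Unthinned, 51.3% and 63.4% of members had a GFP UMI, against 78.9% and 79.0% of the others. Barcodes with at least 10% globin UMI held GFP in 0 of 9 (exact interval 0 to 33.6%) and 1 of 20 (0.127 to 24.9%) after thinning. Unthinned, 6 of 9 and 11 of 21 of them held it. Whether these barcodes lack the reporter is not stated and the intervals are wide, so they set no background level for GFP. A sort on GFP would set these levels, and its part was not tested.

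Clustering of the members alone gave 4 groups at resolution 0.5, described here by their leading genes without a test. The first had 38 cells (12 and 26 in replicates 1 and 2), a median of 6862 UMI and led with DNAH12, VAMP7 and CCNL1. The second had 35 cells (11 and 24) and 13301 UMI and led with RAB13, TSPO and CRTAP, and the third had 28 cells (10 and 18) and 15024 UMI and led with DLK1, KDELR3 and FKBP2. The fourth had 61 cells (6 and 55), a median of 4130 UMI and 0.472% collagen, and led with DACH1, GRIP1 and CTNND2. In the first 3 groups the neural progenitor list stood at 2.29, 0.852 and 0.575 UMI per 10000, and in the fourth at 17.4. APOA1 stood at 116, 185, 235 and 16.2 UMI per 10000 in the 4 groups, and LUM at 4.66, 14.5, 23.9 and 3.34.

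Of the 62 members under 1%, 55 lay in the fourth group. At resolution 1.0 it parted into 9 cells (4 and 5) led by POSTN, CXCL12 and NPY, and 52 cells (2 and 50) led by GALNTL6 and CTNND2. The 9 cells had a median of 11365 UMI and the 52 cells 3750.5. POSTN and CXCL12, which were called higher over all members, each stood at 4.39 UMI per 10000 in the 9 cells.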

How the data were processed

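The authors deposited whole-number UMI counts, which were used as they stand. Per the submitters' processing notes, Cell Ranger, Seurat 4.3.0 and R 4.1.2 were used with bosTau9. Library membership was read from column prefixes, and the number of unused columns was 0. No coordinates or sequences are given, and some genes are not reported here. Members and gene lists were chosen with earlier results of these data known.

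Counts were summed per library over members and over the other kept barcodes. The 4 sums were fitted in R 4.3.3 with edgeR 4.0.16 (TMM, filterByExpr, robust glmQLFit), with library as a term because both sums of a library come from the same loading. The fit left 1 residual degree of freedom, and the spread was taken almost wholly from all genes together. An SE is the log2 fold change divided by the root of its F statistic. The count filter can pass a gene through the group where it is high, so the counts per list describe tested genes alone, 386 of 496 listed. COL1A1, COL1A2 and COL3A1 stayed in library sizes but out of the test. In simulated data on 13155 genes, 100 well-counted genes were changed 2-fold and 100 were changed 4-fold, with the fitted dispersions. The fit recovered 40% of the 2-fold and 92% of the 4-fold changes, with 4 false calls. The real data had 38.6% of genes called and TMM factors that differed between the groups. The simulation had neither, so its rates do not carry over to these data.

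Named genes were GFP, the 16 largest rises and 10 largest falls called with the same sign in each library, at 50 CPM or more in the higher group and with a gene name, and, as examples, members of the 28 lists. Thinning to 2000 UMI left out 0 and 3 members and 190 and 212 other barcodes. Clustering used scanpy 1.11.5 on 2000 variable genes and 20 principal components. Alternatives included DESeq2 1.42.0, limma-trend 3.58.1 with a prior count of 2, other scalings and other collagen limits. Scaling by library size alone and a comparison without the barcodes of at least 10% globin UMI (HBZ, HBE1, HBE2, HBE4 and HBM) were added after seeing the data.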

Additional observations from a re-analysis of the deposited data

How the results depend on the processing

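The numbers of genes higher in collagen-rich cells and of genes lower in collagen-rich cells were 1488 and 5864 with scaling by library size alone, 1587 and 940 by DESeq2, and 1393 and 883 by limma-trend, against 2653 and 2518 in the edgeR fit. At an unadjusted p under 0.05, 6203 genes passed. Calls higher made up 51.3% of all calls with TMM and 20.2% with library size alone. Without the replicate block, which pairs both sums of a library, the counts were 2976 and 2904, and PAG2 was no longer called (adjusted p = 0.25). Among genes named in the text or highest in a list, the calls lost numbered 30 by limma-trend, 16 by DESeq2, 11 under the looser rule, and 8 each without the block and with library size alone. With 1 library left out no residual degree of freedom remains, so counts of genes could not be tested. The GFP change without a library ranged from -3.53 to -1.81. It was -0.46 and not called under the looser rule of at least 5 collagen UMI and 0.1%, which also left ZNF804A not called. Members made up 3.09% and 6.87% of kept barcodes of replicates 1 and 2 under the looser rule, and 1.79% and 2.85% under the stricter rule. Without a library the mean share of members ranged from 2.12% to 5.31%. Thinned to 1000 UMI, 51.2% and 53.8% of other kept barcodes had a GFP UMI. The cause of these shifts was not tested. Under the stricter rule TAGLN stood at -3.99, CXCL12 at -8.26, POSTN at -7.75 and FOXC1 at -0.39. Under the looser rule PRRX1 stood at 0.47, ID3 at 0.04 and TWIST2 at 0.23. SERPINA1 stood at 3.17 without replicate 2. ACTC1 changed by -0.44 with library size alone, -1.90 by DESeq2, -1.93 by limma-trend, -0.14 under the looser and -3.40 under the stricter rule. TOP2A changed by 0.28 without the replicate block, 0.18 under the looser rule and 0.10 without the deepest 10% of members. With library size alone HOXB2 and HAND2 stood at -0.27 and ID1 at -0.26. Without the 30 other kept barcodes of at least 10% globin UMI, HBZ stood at 0.22, HBE1 at 0.14 and HBE2 at 0.51, and HBE4 was no longer called. Those barcodes held most of the HBZ, HBE1 and HBE4 UMI of the comparison. MYL7 stood at 0.72 without them, and the cause of its shift was not tested. PTGS2 stood at -0.67 by limma-trend, AIF1 at 0.40 under the stricter rule, and ID2 and MIA3 at 0.01 with cells of at least 5000 UMI.

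The few members of replicate 1, 39 cells, and the 1 residual degree of freedom limit what can be told.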

Other observations

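Lists for other embryonic lineages gave partial matches in collagen-rich cells. Each had few tested genes, and 19.8% of all genes were called higher and 18.8% lower by the same fit. Of 4 tested somite and skeletal genes 2 were higher and 1 lower. RUNX2, a factor of bone-forming mesenchyme, had 89.2 and 90.9 CPM in collagen-rich cells of replicates 1 and 2, against 11.5 and 11.2 CPM in the other kept barcodes (log2 fold change 2.99, SE 0.30). SOX9, a factor of cartilage and other progenitors, had 19.1 and 34.4 CPM in collagen-rich cells, against 13.8 and 11.7 CPM in the others (1.22). Of 5 neural crest genes tested 1 was higher and 2 lower: ETS1 changed by 3.08 and TFAP2B by -4.14, and TFAP2A had 0 UMI in the members. SOX10 had 0 UMI in the members and 1 and 3 UMI in all other kept barcodes. The blood and macrophage list had 1 of 4 tested genes higher, which was RUNX1, and the cardiomyocyte list 1 of 5 higher, which was MYL4, and 1 lower, which was MYL7 (-2.04), a call lost without the 30 other kept barcodes of at least 10% globin UMI (0.72). Under the stricter rule of at least 20 collagen UMI and 1% 3 of 5 cardiomyocyte genes were lower.

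IGFBP3, an insulin-like growth factor binding protein gene, differed between libraries, with 22.3 and 138 CPM in collagen-rich cells, against 5.75 and 3.77 CPM in the others. It was higher by edgeR (4.17) and not called by limma-trend (adjusted p = 0.0829).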
